A study of Mus musculus with 93 samples.

Results

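The genes described here make melanin, the dark pigment of the eye, or build the organelle that holds it, the melanosome. They were chosen by symbol from a list of 10, and 9 of these had a row among the 30235 genes of the deposited tables, namely Tyr, Tyrp1, Dct, Pmel, Slc24a5, Slc45a2, Oca2, Gpr143 and Mitf. Mlana was not analysed here. On GRCm38, Tyr lies at chr7:87424771-87493512, Tyrp1 at chr4:80834123-80851719, Dct at chr14:118012792-118052246, Pmel at chr10:128706258-128720238 and Slc24a5 at chr2:125068124-125088677. Slc45a2 lies at chr15:11000721-11029233, Oca2 at chr7:56239760-56536518, Mitf at chr6:97807052-98021349 and Gpr143 at chrX:152781921-152808646. RNA was sequenced from posterior eyecups, that is, eyes from which lens and neural retina had been removed, and from neural retinas of untreated female mice. Efemp1ki/ki mice gave 8 eyecup libraries at 3 months, 8 at 9 months and 7 at 17 months, and Efemp1+/+ mice (wild type) gave 6, 8 and 8 at the same ages. Each of the 6 retina groups, Efemp1ki/ki and wild type at the same ages, had 8 libraries. Efemp1 encodes a secreted matrix protein, and the series uses these mice to model Doyne honeycomb retinal dystrophy. The labels give neither the strain nor the coat colour. Nor do they tie a library to its own animal, and p-values reflect only how far these samples differ from one another, which may be technical in part.

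Melanin is made from tyrosine inside melanosomes. Tyrosinase, encoded by Tyr, starts the pathway, the related enzymes encoded by Tyrp1 and Dct act on later intermediates, and Pmel forms the fibrils on which pigment is laid down. In the back of the eye, melanosomes lie in the retinal pigment epithelium, a single cell layer beneath the photoreceptors that also runs the visual cycle, and in choroidal melanocytes, which come from the neural crest. The transcription factor MITF drives many of these genes in pigment cells and binds E-box sequences, CATGTG among them.

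Promoter sequences are shown because the members varied together from library to library, as described further on. RefSeq windows on GRCm38.p6 were at hand for 6 of the 10 listed genes (Tyr, Tyrp1, Dct, Slc24a5, Oca2 and Mitf), and 5 of the 6 held CATGTG, on either strand, within 250 bases upstream of the start. Over all genes, 12.3% of 32851 windows of that length held it. That share counts windows, not genes, and the 6 members had 8 windows. CATGTG was looked for because MITF, which drives many of these genes, binds it, so finding it here is no independent result. The longer TCATGTG, which contains CATGTG, was found in Tyr, Tyrp1, Dct and Slc24a5 and in 3.25% of all windows. The E-box form CACGTG was found in none of the members' windows and in 6.02% of all windows, and the 3 windows of Mitf held none of these motifs. The 4 windows with TCATGTG follow, 5′ to 3′ on the strand of the gene, with CATGTG or its reverse complement CACATG in capitals.
Tyr, chr7:87493513-87493762, minus strand: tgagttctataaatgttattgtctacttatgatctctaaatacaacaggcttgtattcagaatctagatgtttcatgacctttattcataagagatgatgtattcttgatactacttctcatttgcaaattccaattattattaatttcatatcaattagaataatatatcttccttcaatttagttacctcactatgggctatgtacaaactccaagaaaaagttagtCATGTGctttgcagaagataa
Tyrp1, chr4:80833963-80834212, plus strand: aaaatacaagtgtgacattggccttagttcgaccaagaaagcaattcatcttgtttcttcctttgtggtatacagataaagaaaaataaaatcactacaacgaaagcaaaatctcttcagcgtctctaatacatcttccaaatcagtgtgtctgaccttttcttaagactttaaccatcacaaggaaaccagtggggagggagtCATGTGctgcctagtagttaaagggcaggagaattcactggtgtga
Dct, chr14:118052247-118052496, minus strand: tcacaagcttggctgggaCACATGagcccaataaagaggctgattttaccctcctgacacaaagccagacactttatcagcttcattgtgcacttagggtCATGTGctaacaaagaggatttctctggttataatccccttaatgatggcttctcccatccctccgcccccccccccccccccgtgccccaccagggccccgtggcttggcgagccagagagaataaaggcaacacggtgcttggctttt
Slc24a5, chr2:125067877-125068126, plus strand: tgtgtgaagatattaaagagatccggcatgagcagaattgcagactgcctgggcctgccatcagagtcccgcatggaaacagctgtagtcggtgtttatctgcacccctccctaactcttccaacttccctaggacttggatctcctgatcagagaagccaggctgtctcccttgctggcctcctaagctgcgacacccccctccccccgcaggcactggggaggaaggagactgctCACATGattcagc
The match lay 21 bases upstream of the RefSeq start in Tyr, 46 in Tyrp1 and 13 in Slc24a5, and Dct held a pair, at 232 and 150 bases. In Tyrp1 the RefSeq start lies downstream of the gene start given above from the files, so that the match there falls inside the gene as the files place it. These matches describe letters in the windows and do not show that a factor was bound there.

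Eyecup libraries held from 14236127 to 35297627 estimated counts and retina libraries from 9218127 to 37475492. The eyecups held several tissues besides pigmented ones. Summed over lists of 12 marker genes each, skeletal muscle ran from 2813 to 50487 CPM (counts scaled to the size of the library) in eyecups, ocular surface epithelium from 22755 to 65723 CPM, and rods from 196 to 24562 CPM. The list of 8 Schwann cell genes summed to between 2239 and 6576 CPM. Rpe65, the isomerase of the visual cycle and a defining gene of the pigment epithelium, averaged 114 ± 44.4 CPM in eyecups (SD, n = 45) and 5.99 ± 4.11 CPM in retinas (SD, n = 48). Sox10, a transcription factor of melanocytes and of Schwann cells, averaged 43.9 ± 10.2 CPM in eyecups and 0.537 ± 0.444 CPM in retinas. Efemp1 differed by -0.07 ± 0.08 (log2 fold change ± SE, mean of 3 ages) between Efemp1ki/ki and wild-type eyecups (edgeR adjusted p = 0.735). By overall profile, 3 eyecups (wild type at 9 months replicate 4, Efemp1ki/ki at 3 months replicate 4 and wild type at 17 months replicate 2) and 3 retinas stood apart from their groups.

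Among the members, Dct, whose enzyme dopachrome tautomerase acts after tyrosinase, had the most transcript per length in the eyecup, at 201 ± 70.1 deposited TPM (SD, n = 45; from 74.5 to 386). Pmel followed with 80.0 ± 30.1 TPM and Tyrp1 with 70.9 ± 25.9 TPM, and the ranges of neighbours in this upper part of the order overlapped. Slc24a5, a potassium-dependent sodium/calcium exchanger of melanosomes or their precursors, came next with 33.0 ± 9.81 TPM, from 17.2 to 58.6. No eyecup had as much Tyr as the lowest Slc24a5 value. Tyr stood at 8.55 ± 2.82 TPM, and below it came Mitf with 6.71 ± 1.11, Slc45a2 with 5.46 ± 2.05, Oca2 with 5.43 ± 1.81 and Gpr143 with 4.51 ± 1.55 TPM. The ranges of each of these 5 overlapped that of its neighbour. Between the highest and the lowest eyecup, TPM differed 2.25-fold for Mitf and 6.38-fold for Tyrp1, which bound the other members.

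**Figure D1:**
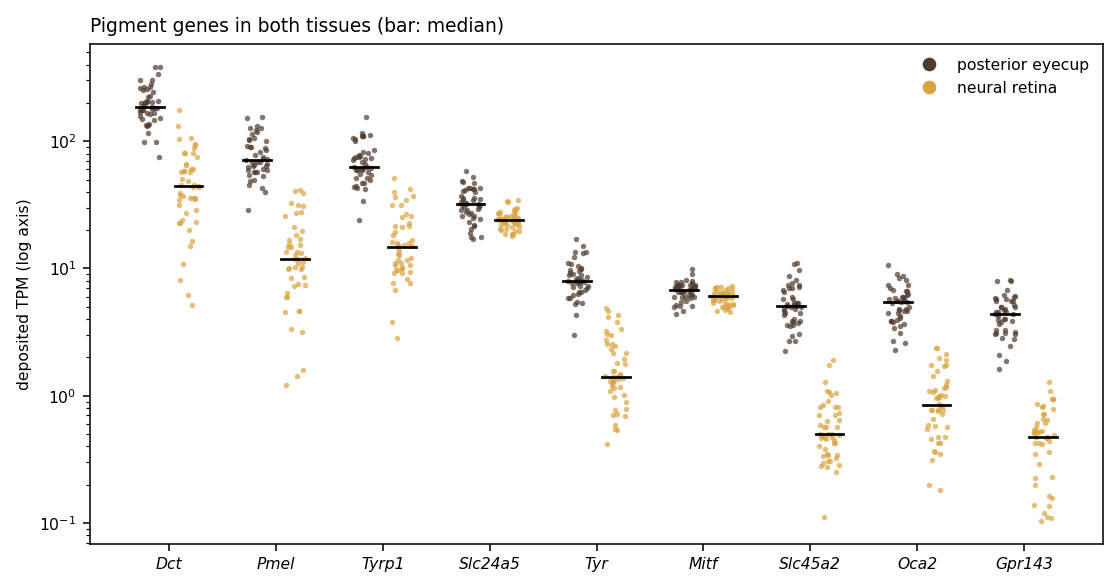
Deposited TPM (log axis) of the 9 genes in posterior eyecups (45 libraries, left of each pair) and neural retinas (48 libraries, right), with a bar at the median; 4 retinas in which Gpr143 was at 0 are not drawn. The tissues lie far apart for Gpr143 and Slc45a2, and close together for Mitf (means 6.71 and 5.96 TPM) and Slc24a5 (33.0 and 24.3 TPM).

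All 9 members were higher in eyecups than in retinas, in a fit of all 93 libraries in which 94.7% of genes differed between the tissues and 47.7% were higher in eyecups. The difference was widest for Gpr143, the receptor mutated in ocular albinism, at 16.0-fold (log2 fold change 4.00 ± 0.15 SE), and for Slc45a2, a melanosomal transporter, at 15.04-fold. It was 9.33-fold for Pmel, 9.29-fold for Oca2, 7.90-fold for Tyr, 6.82-fold for Tyrp1 and 6.63-fold for Dct. Slc24a5 at 2.24-fold (1.16 ± 0.07) and Mitf at 2.05-fold (1.03 ± 0.05) differed least. These folds come from counts scaled between tissues of very unlike makeup, and the deposited TPM gave smaller ones: the log2 difference on the log2(TPM + 1) scale, which understates folds of low genes, was 0.14 for Mitf and 0.39 for Slc24a5. In mean TPM, the retina held 88.9% of the eyecup's Mitf and 73.5% of its Slc24a5, against 10.4% to 25.6% for the other 7. From the lowest to the highest retina, TPM of Pmel and Dct each spanned 34.1-fold, whereas Mitf spanned 1.60-fold and Slc24a5 1.89-fold. Slc24a5 overlaps Myef2, which lies on the opposite strand, over 4050 bases. Myef2 averaged 29.3 CPM in eyecups and 102 CPM in retinas, and whether the counting kept the strands apart is not given in the sources used here, so the share of Myef2 reads in the Slc24a5 counts was not tested. Pmel overlaps Dgka on the opposite strand over 98 bases, and Oca2 overlaps Gm44506, itself near 0, over 965 bases.

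With the 3 ages averaged, all 9 members had lower estimates in Efemp1ki/ki than in wild-type eyecups, and 1 of them, Slc24a5, passed the test. In this comparison 4.48% of all 18003 genes tested were called, 3.37% as lower, so the share of members called, 1 of 9, rests on a single gene. The members' median log2 fold change was -0.34, that of all genes 0.02, and 6 of the 9 had an unadjusted p under 0.05, as did 19.5% of all genes. The members varied together between eyecups (median pairwise r of 0.855, described further on). Counts of members, here and below, therefore do not stand for as many independent results. Fewer pigmented cells and less RNA per pigmented cell cannot be told apart in such bulk tissue.

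**Figure D2:**
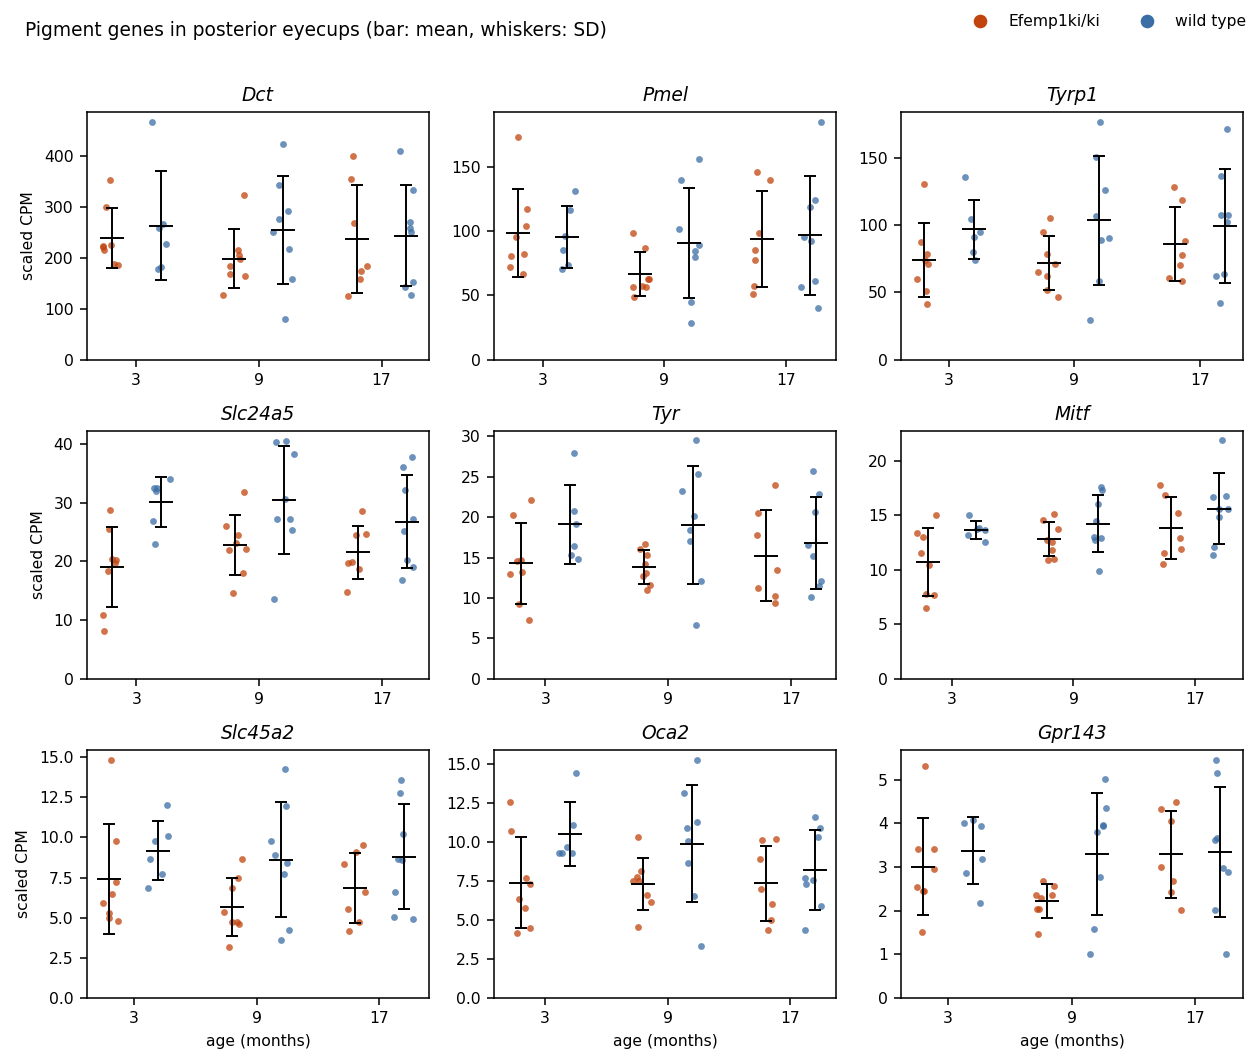
Scaled CPM of each gene in each eyecup library by age, with Efemp1ki/ki left of wild type; bars show the mean and whiskers the SD (n = 8, 8 and 7 Efemp1ki/ki and 6, 8 and 8 wild-type libraries at 3, 9 and 17 months). The genotypes overlap for every gene at every age, and at 3 months all 8 Efemp1ki/ki values of Slc24a5 lie below the wild-type median of 32.2 CPM.

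The enzymes come first. Tyr ranged from 7.29 to 22.2 CPM with a median of 13.8 in Efemp1ki/ki eyecups at 3 months, against 14.8 to 27.9 CPM with a median of 17.8 in wild type. At 9 months it ranged from 11.0 to 16.7 CPM (median 13.7) in Efemp1ki/ki and from 6.69 to 29.5 CPM (median 19.3) in wild type. At 17 months it ranged from 9.33 to 23.9 CPM (median 13.5) in Efemp1ki/ki and from 10.1 to 25.6 CPM (median 15.8) in wild type. The groups overlapped at each age, and at 9 months all 8 Efemp1ki/ki values were below the wild-type median. Over the ages Tyr counts stood at 79.0% of wild type in Efemp1ki/ki (log2 fold change -0.34 ± 0.14, adjusted p = 0.163). In deposited TPM the genotypes lay closer together for Tyr. Efemp1ki/ki and wild-type medians were 8.39 and 8.94 TPM at 3 months and 7.05 and 7.86 TPM at 9 months. At 17 months the medians were 7.70 and 7.82 TPM. Mean TPM was 9.29 and 9.36 at 3 months and 6.99 and 9.01 at 9 months. By 17 months the Efemp1ki/ki mean, 8.72 TPM, exceeded the wild-type mean, 8.14 TPM. Tyrp1 had median levels of 72.7, 67.9 and 78.0 CPM in Efemp1ki/ki eyecups at 3, 9 and 17 months, against 93.1, 98.7 and 105 CPM in wild type. It stood at 77.3% of wild type (-0.37 ± 0.16, adjusted p = 0.181), again with overlap at each age. For Dct the medians were 223, 191 and 183 CPM in Efemp1ki/ki and 243, 264 and 255 CPM in wild type, and its estimate of 88.4% (-0.18 ± 0.16, adjusted p = 0.597) was closer to equality than those of Tyr and Tyrp1.

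Pmel, the fibril protein, was closest to equality. Its medians were 88.4, 59.95 and 85.5 CPM in Efemp1ki/ki eyecups at 3, 9 and 17 months and 90.7, 86.8 and 93.4 CPM in wild type. The Efemp1ki/ki level was 90.2% of wild type (-0.15 ± 0.16, adjusted p = 0.704), and at 3 months 4 of 8 Efemp1ki/ki values lay above the wild-type median.

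The transporters included the lowest estimate and the only call. Slc24a5 ranged from 8.19 to 28.8 CPM (median 19.98) in Efemp1ki/ki eyecups at 3 months, against 23.0 to 34.1 CPM (median 32.2) in wild type. At 9 months it ranged from 14.7 to 31.8 CPM (median 22.7) in Efemp1ki/ki and from 13.6 to 40.6 CPM (median 29.0) in wild type. At 17 months it ranged from 14.9 to 28.5 CPM (median 19.8) in Efemp1ki/ki and from 16.9 to 37.7 CPM (median 26.2) in wild type. The groups overlapped at each age, but at 3 months 6 of the 8 Efemp1ki/ki values were under the lowest wild-type value, and at 9 and 17 months 7 of 8 and 6 of 7 were below the wild-type median. The lowest 2 of the 8 values at 3 months, in replicates 4 and 3, came from eyecups with an extreme GC trend, described further on. Each of these eyecups was the lowest of its group for 4 of the 9 members. Averaged over the ages, Slc24a5 fell to 72.4% of wild type in Efemp1ki/ki (-0.47 ± 0.12, edgeR adjusted p = 0.0208). The single ages did not pass: the estimate was -0.66 ± 0.22 at 3 months (adjusted p = 0.0817), -0.42 ± 0.20 at 9 months (adjusted p = 0.9998) and -0.32 ± 0.21 at 17 months (adjusted p = 0.649). The call for the mean over the ages was kept without the 3 eyecups that stood apart (adjusted p = 0.0116) and was lost on log2(TPM + 1) (-0.29, adjusted p = 0.602), with GC offsets (-0.39, adjusted p = 0.101) and with GC offsets and the replicate block (-0.37, adjusted p = 0.161). Its overlapping neighbour Myef2 differed by -0.10 ± 0.12 (adjusted p = 0.738). Slc45a2 had medians of 6.21, 5.02 and 6.58 CPM in Efemp1ki/ki and 9.20, 8.67 and 8.62 CPM in wild type, which came to 74.6% (-0.42 ± 0.15, adjusted p = 0.105). Oca2, a melanosomal anion channel named for oculocutaneous albinism, had medians of 6.83, 7.49 and 6.95 CPM in Efemp1ki/ki and 9.47, 10.5 and 7.62 CPM in wild type, or 77.5% (-0.37 ± 0.14, adjusted p = 0.130).

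Gpr143 was the least abundant member, with medians of 2.75, 2.32 and 3.00 CPM in Efemp1ki/ki eyecups and 3.56, 3.87 and 3.30 CPM in wild type. The Efemp1ki/ki level was 83.8% of wild type (-0.26 ± 0.16, adjusted p = 0.397). Mitf ranged from 6.47 to 15.1 CPM (median 11.0) in Efemp1ki/ki eyecups at 3 months, against 12.6 to 15.04 CPM (median 13.7) in wild type. At 17 months it ranged from 10.5 to 17.8 CPM (median 12.9) in Efemp1ki/ki and from 11.4 to 22.0 CPM (median 15.6) in wild type. The groups overlapped, and the level over all ages was 85.3% of wild type (-0.23 ± 0.09, adjusted p = 0.116).

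**Figure D3:**
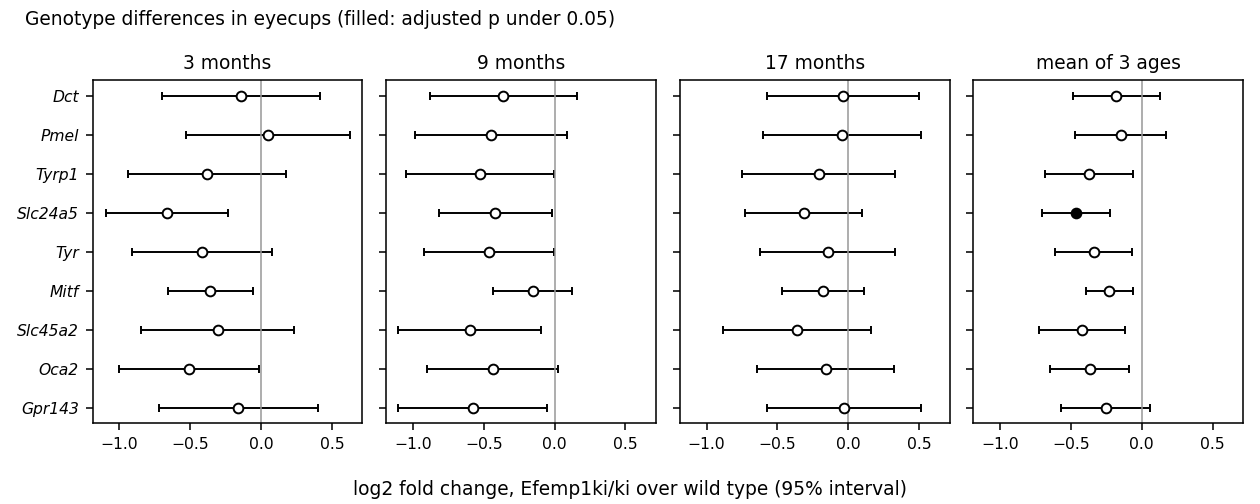
Log2 fold change, Efemp1ki/ki over wild type, of each gene in eyecups at 3, 9 and 17 months and as the mean of the ages, with 95% intervals; filled points have an adjusted p under 0.05. In the mean of the ages all 9 points are below 0 and 1 is filled, Slc24a5 at -0.47.

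At single ages no member was called, where 3.07% of genes were called at 3 months, 0.00555% at 9 months and 0.0611% at 17 months. Unadjusted p-values under 0.05 were found for 2 of 9 members at 3 months, 3 at 9 months and 0 at 17 months, beside 3075, 249 and 1803 of the 18003 genes. The members' median was -0.36 at 3 months, with 8 of 9 below 0, -0.45 at 9 months and -0.16 at 17 months, with 9 of 9 below 0 at the last 2 ages. The genotype difference at 17 months minus that at 3 months ranged from -0.09 to 0.35 among members, and 0 of 9 were called, with 0 of 9 at an unadjusted p under 0.05. In that comparison 0% of all genes were called, 560 having an unadjusted p under 0.05.

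Other measures moved with genotype in the eyecup. The summed level of 16 pigment epithelium genes that are no members had medians of 1954, 1518 and 1675 CPM in Efemp1ki/ki eyecups at 3, 9 and 17 months, against 2165, 2040 and 1727 CPM in wild type, with overlapping ranges. Of these 16 genes, 15 had estimates below 0 and 3 fell, Lrat (-0.61) and Rpe65 (-0.48) of the visual cycle and the anion transporter Slc26a7 (-0.50), with a list median of -0.18. Over all genes, 4.48% were called in this comparison of the mean over ages and 3.37% were called lower, for this list and those that follow. Of the lists for skeletal muscle, ocular surface epithelium and rods, 0 of 12 genes each were called, with medians of 0.14, 0.16 and -0.02. Of 12 immediate early genes, which respond within minutes to stimuli and to tissue handling, 9 rose in Efemp1ki/ki, with a median of 0.54, and their part in the members' values was not tested. With the mean level of the pigment epithelium list as a covariate, the members' median was -0.06 and Slc24a5 remained called (-0.27, adjusted p = 0.0422). It was the 1 member of 9 called in that fit, which called 2505 of the 18003 genes, against 807 without the covariate. Counts also leaned on base composition to a different degree: the trend of a library's counts per 10 points of GC content averaged 0.230 ± 0.275 (SD, n = 8) in Efemp1ki/ki eyecups at 3 months and -0.0724 ± 0.0262 (SD, n = 6) in wild type. Replicates 4 (0.827) and 3 (0.439) stood out among these Efemp1ki/ki eyecups, and without them the Efemp1ki/ki mean was 0.0955 ± 0.0639 (SD, n = 6). At 9 months the means were -0.0941 ± 0.116 (SD, n = 8) for Efemp1ki/ki eyecups and -0.124 ± 0.0610 (SD, n = 8) for wild-type ones. At 17 months they were 0.0908 ± 0.120 in Efemp1ki/ki (SD, n = 7) and -0.0366 ± 0.0578 in wild type (SD, n = 8). Of the 9 members, 7 had a GC content under the median of 49.7% over all genes, from 35.2% for Tyr upward. With GC offsets per library, Slc24a5 stood at -0.39 and was not called (adjusted p = 0.101), and Tyr stood at 0.05. The part of tissue makeup and of GC content in the genotype differences was not tested beyond these fits.

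With age, no member was called in the eyecup. In Efemp1ki/ki eyecups, 17 against 3 months, 0 of 9 were called against 3.57% of genes, and in wild type 0 of 9 against 5.88%. With both genotypes averaged, 20.7% of genes were called and again 0 of 9 members, whose median was -0.03. Mitf came nearest, at 0.37 ± 0.15 in Efemp1ki/ki (adjusted p = 0.154), 0.19 ± 0.15 in wild type (adjusted p = 0.435) and 0.28 ± 0.11 on average (adjusted p = 0.0547). That last value lay so near the threshold that leaving out any 1 of 8 libraries brought it under 0.05, with a range of 0.0221 to 0.158 over all libraries left out.

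In the retina, where these genes were lower than in the eyecup, 0 of 8 tested members differed between genotypes in the mean of 3 ages, against 5.24% of genes. Gpr143 did not pass the filter on low counts. The estimates lay on the other side from those of the eyecup: 7 of 8 were above 0, with a median of 0.47 and a range of -0.07 to 0.67. Tyrp1 had medians of 15.02, 17.8 and 30.1 CPM in Efemp1ki/ki retinas at 3, 9 and 17 months, against 11.3, 13.6 and 8.85 CPM in wild type. Its full range at 17 months was 8.44 to 39.6 CPM in Efemp1ki/ki and 2.49 to 29.8 CPM in wild type, so the groups overlapped, although 4 of 8 Efemp1ki/ki values exceeded every wild-type value. Its estimate over the ages was 0.67 ± 0.22 (adjusted p = 0.0688). Rpe65 in the same retinas differed by 0.26 ± 0.24 over the ages (adjusted p = 0.569). Its medians at 3, 9 and 17 months were 3.67, 5.34 and 7.44 CPM in Efemp1ki/ki and 5.53, 4.53 and 4.13 CPM in wild type. Rpe65 was thus lower at 3 months and higher at 9 and 17 months, with overlapping ranges. The members' median log2 fold change was 0.04, 0.58 and 0.72 at these ages. The part of pigment epithelium in the retina samples was not tested beyond the covariate fit. At single ages 0 of 8 members were called, against 1.83%, 0% and 0.406% of genes at 3, 9 and 17 months. At 9 months 1047 genes had an unadjusted p under 0.05, none of them a member. With age, 1 of 8 members rose in the retina, against 36.4% of genes called and 19.1% called higher: Slc45a2, at 0.63 ± 0.25 (adjusted p = 0.0469). That call was lost without a filter (adjusted p = 0.0680), with voom (0.0551), on log2(TPM + 1) (0.0594) and with the pigment epithelium covariate (0.250). It had medians of 0.475 and 0.816 CPM in Efemp1ki/ki retinas at 3 and 17 months and 0.539 and 0.686 CPM in wild type, and the ranges overlapped.

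The difference between the tissues was tested directly, as the genotype difference in eyecup minus that in retina. All 9 estimates were below 0, with a median of -0.70, and 3 of 9 members were called, all lower, against 3.23% of genes called and 2.41% called lower. They were Slc24a5 (-0.51 ± 0.14, edgeR adjusted p = 0.0230), Tyrp1 (-1.04 ± 0.28, adjusted p = 0.0257) and Tyr (-0.96 ± 0.27, adjusted p = 0.0328). On log2(TPM + 1) all 3 calls were lost (adjusted p of 0.417 for Slc24a5, 0.188 for Tyrp1 and 0.638 for Tyr). Tyr also lost its call without a filter (adjusted p = 0.0547), with the replicate block (0.0533) and without the libraries that stood apart (0.0621). GC offsets, marker covariates and leaving out single libraries were not run for this joint fit, so the part of GC content in these 3 calls was not tested. For Slc24a5 the eyecup estimate was -0.47 ± 0.12 and the retina estimate 0.04 ± 0.06. For Tyrp1 and Tyr neither tissue passed alone, and their estimates had opposite signs in eyecup and retina. The other 6 ranged from -0.78 for Dct to -0.17 for Mitf. Of the 16 pigment epithelium genes, 1 was called here, Slc26a7 (-0.72, adjusted p = 0.0220), while Rpe65 stood at -0.74 (adjusted p = 0.111).

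Within groups, the members varied together. After group means were removed, the 36 pairs of members had a median Pearson r of 0.855 over 45 eyecups, from 0.512 to 0.936, with no p given since all pairs share libraries and depth. Tyr and Oca2 were the closest pair (0.936), followed by Tyrp1 with Pmel (0.934) and Tyr with Tyrp1 (0.931). Mitf stood apart from the rest, with r between 0.512 and 0.696 to the other members. The same library often led. In Efemp1ki/ki eyecups, replicate 6 at 3 months was the highest of its group for 8 of 9 members, and at 17 months replicate 8 was highest and replicate 2 lowest for 8 of 9 each. In wild type, replicate 3 at 3 months was highest and replicate 5 at 9 months lowest for 9 of 9 each. In retinas the 28 pairs had a median r of 0.613, from 0.273 to 0.964. There Tyr, Tyrp1, Dct and Pmel kept r of 0.910 or more among themselves, while Slc24a5 had a median r of 0.444 to the other members and Mitf 0.327.

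**Figure D4:**
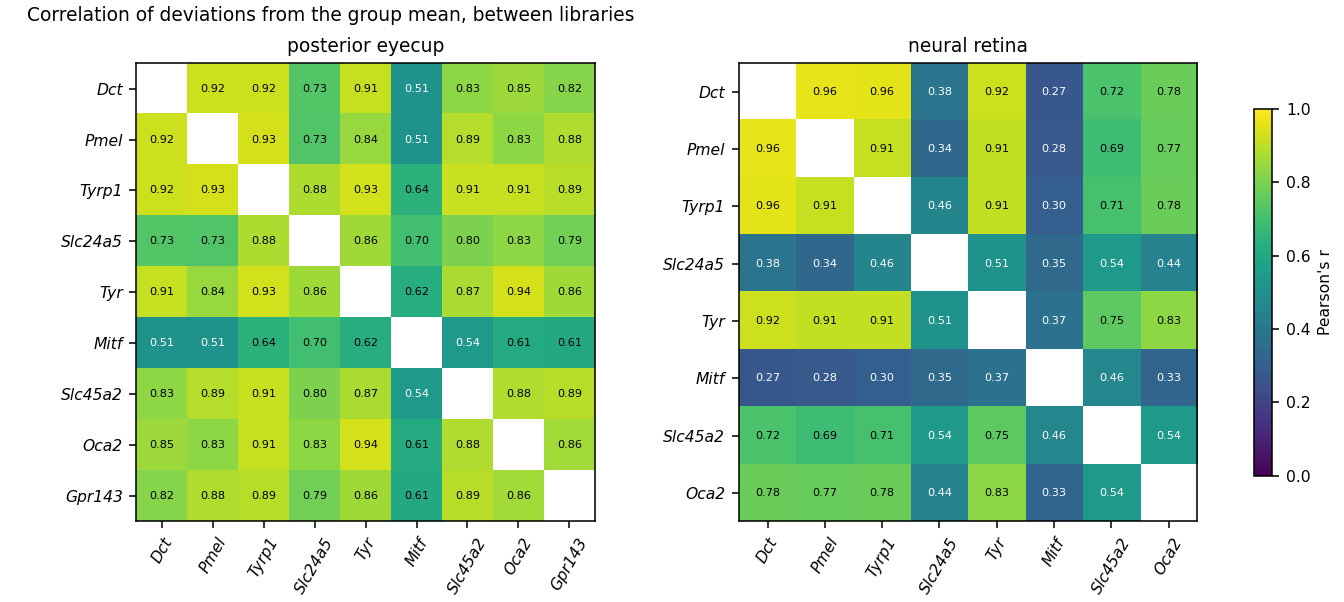
Pearson's r between members, over libraries, of deviations from the group mean of log2 CPM in posterior eyecups (left, 45 libraries) and neural retinas (right, 48 libraries). Rows and columns of Mitf are darker (lower r) than the rest in both tissues, with r from 0.512 to 0.696 in eyecups, and those of Slc24a5 stand out in retinas.

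The members were also set against Rpe65, a gene of the pigment epithelium with no part in making pigment. In eyecups, the deviations of all 9 members followed those of Rpe65, with r from 0.657 for Pmel to 0.860 for Oca2 and Spearman's rho from 0.582 to 0.805 (permutation within groups, 17 relations, adjusted p of 0.000529 or less for each). Without the 2 eyecups farthest from the median of Rpe65, r was 0.600 to 0.828. In retinas r was 0.618 for Oca2 (rho 0.530), 0.549 for Tyr (rho 0.499) and lower for the others. For Slc24a5 it was 0.278 (rho 0.162, adjusted p = 0.0819 and 0.317) and for Mitf 0.262 (rho 0.149, adjusted p = 0.119 and 0.339). Without the 2 farthest retinas r ran from 0.133 to 0.523. The smallest p these 100000 permutations can give is 1e-05. The permutations test r against 0, and Rpe65 shares libraries, depth and tissue makeup with the members. Small p-values therefore do not set Rpe65 apart from other genes.

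**Figure D5:**
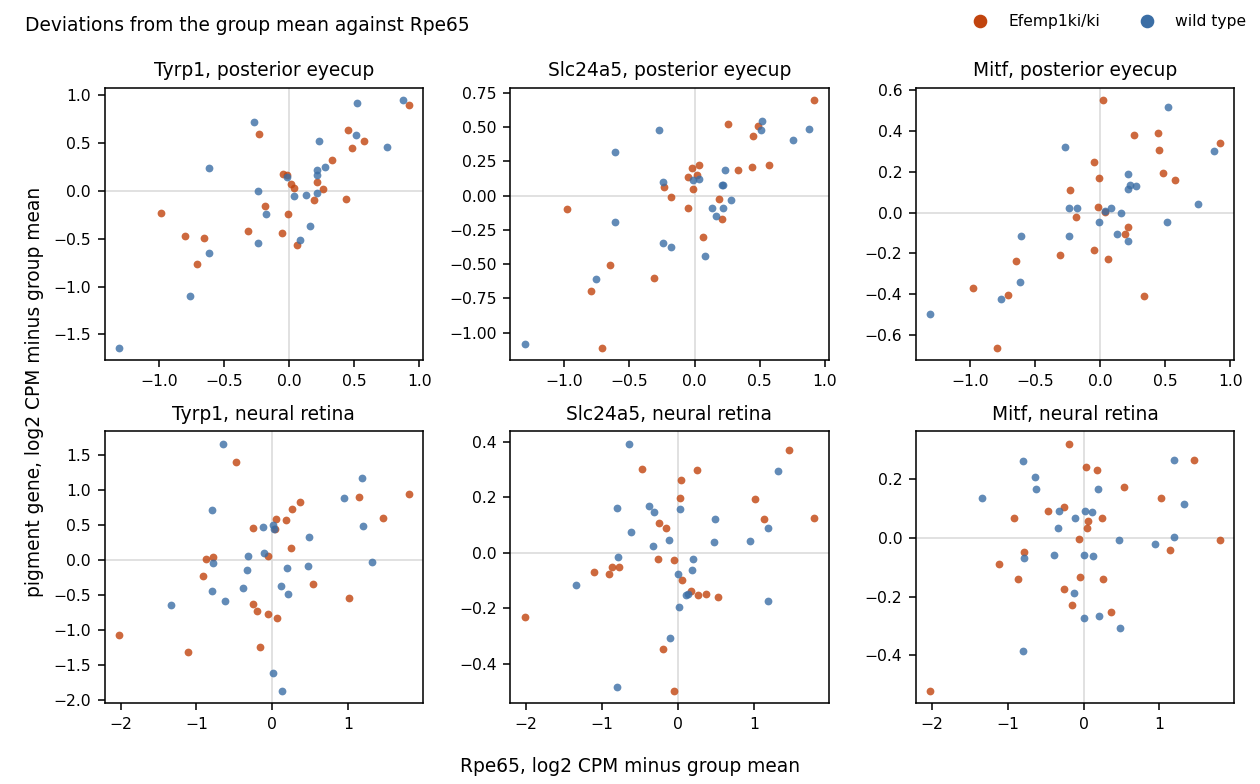
Deviations from the group mean (log2 CPM) of Tyrp1, Slc24a5 and Mitf against those of Rpe65, 1 point per library, in eyecups (top, n = 45) and retinas (bottom, n = 48). In eyecups the 3 genes follow Rpe65 (r of 0.751, 0.741 and 0.681), and in retinas the relation is looser (0.352, 0.278 and 0.262).

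Among 15512 genes that are no members, those whose deviations were most like the members' mean over 45 eyecups were Kcnj13 (r = 0.914), Edn3 (0.907), Tspan10 (0.903) and Mcoln3 (0.889). Kcnj13 encodes a potassium channel of the pigment epithelium, Edn3 a ligand that acts on melanocyte precursors, and Tspan10 a tetraspanin. Then came Timp3 (0.869), Gpnmb (0.868), Ociad2 (0.863), Bdh2 (0.861), Bmp4 (0.850), C2 (0.848), Cd63 (0.845) and Tmem98 (0.836). Over all these genes the median r was 0.151, and 5% of them lay above 0.556. Of the marker lists, the members' mean followed most closely the pigment epithelium list (r = 0.861), then genes of melanosome biogenesis and transport (0.778), of ciliary body and iris (0.687), of neural crest melanocytes (0.673) and of macrophages (0.661), and it ran against the rod list (-0.300).

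Other genes of the pigment pathway were followed in eyecups, by genotype with the ages averaged, where 4.48% of all genes were called and 3.37% were called lower. Of 32 genes of melanosome biogenesis and transport, 0 were called, with a median of 0.02. Of 21 pigment cell transcription factors, 1 rose, Tfe3 (0.13), a relative of MITF, and 3 fell, Pax3 (-0.72), Creb1 (-0.27) and Zeb2 (-0.16). Pax3, which acts in the neural crest, was also the only gene called of the 7 on the list of neural crest melanocyte markers. The summed level of that list did not fall with it, averaging 531.4, 451.8 and 439.1 CPM in Efemp1ki/ki eyecups at 3, 9 and 17 months. Wild-type eyecups averaged 520.3, 434.2 and 413.5 CPM at these ages, with overlapping ranges. Abundant genes weigh most in this sum, Kit alone averaging 157 CPM over the 45 eyecups, and a change in melanocyte number was not tested. Of 14 signalling genes tested, 1 fell, Kitl (-0.40, adjusted p = 0.0413), which encodes the ligand of the receptor KIT on melanocytes. With age, Gpnmb, a glycoprotein of melanosomes and of macrophages, rose by 0.97 (log2) in Efemp1ki/ki and by 0.81 in wild-type eyecups. Of 10 macrophage genes, 8 rose in Efemp1ki/ki and 7 in wild type, where 3.57% and 5.88% of all genes were called. Frzb, a secreted Wnt antagonist, rose by 1.19 in Efemp1ki/ki and 1.30 in wild type, and Adcy2, an adenylate cyclase, rose by 0.79 in wild type.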

How the data were processed

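Messenger RNA libraries from 93 tissue samples were compared in 12 groups of tissue, genotype and age, taken from the sample titles. Per the labels' protocols, RNA came from RNeasy micro columns with DNase I, and 200 ng per sample went into the TruSeq Stranded mRNA kit. The submitters' processing notes name build GRCm38.p4, while aligner, counter, annotation and strand setting were not given in the sources used here. Estimated counts per gene, as the authors deposited them, were rounded before testing. The values deposited as TPM sum to 1000000 over protein-coding genes alone, so they were treated as a score, used for levels per length and 1 alternative. Left out was 1 column of each table whose name fits no sample.

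Genes passing filterByExpr (18003 in eyecups, 17240 in retinas, 19210 jointly) were fitted with edgeR 4.0.16 in R 4.3.3 (TMM, robust quasi-likelihood F test), 1 fit per tissue and 1 joint fit, with Benjamini-Hochberg adjustment over all genes and a threshold of 0.05. SE was derived from the F statistic. CPM are TMM-scaled, and log2 CPM used a prior count of 2. Correlations used deviations from group means, and permutations were 2-sided. Among 316 pairs of libraries of the same group, the closest differed by a chi-square of 2.29 per degree of freedom, so none was a copy. The scripts were tested on simulated counts. Alternatives were RLE factors, no filter, the groups compared alone, the replicate block, limma 3.58.1 (voom, and log2(TPM + 1)), DESeq2 1.42.0, GC offsets (spline, 5 degrees of freedom), marker covariates and leaving out libraries. The joint fit had neither GC offsets nor marker covariates, and single libraries were left out in eyecups alone. The total counts limit precision, and reads are not independent molecules.

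The members and lists were chosen with earlier results of these data known, and so was the test of the genotype difference between tissues. Members were named throughout. From other lists, genes called in the eyecup genotype mean or an eyecup age comparison were eligible, at most 4 per list by smallest p. The 12 genes most like the members' mean were taken from named genes, predicted ones aside, whose mean log2 CPM reached 0. Rpe65, Sox10 and Efemp1 are given as levels or checks, and Myef2, Dgka and Gm44506 because they overlap members.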

Additional observations from a re-analysis of the deposited data

Results flagged for a closer look

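Within groups, 8 of 108 sets of a member's values in a tissue, genotype and age held a library whose gap to the next was wide for the range of the group. The limit would flag about 1 in 20 independent sets of normally spread values. CPM here were not on a log scale and members share libraries, so that rate need not hold. In eyecups, Dct reached 323.7 CPM in Efemp1ki/ki replicate 2 at 9 months, against 216.1 CPM in the next library of that group and a group median of 191.1 CPM. Pmel reached 172.5 CPM in Efemp1ki/ki replicate 6 at 3 months, against 116.8 CPM in the next library. Wild-type replicate 3 at 3 months stood out for Dct, at 466.9 CPM against 267.1 CPM in the next library, and for Oca2, at 14.41 CPM against 11.07 CPM. In retinas, Tyr reached 5.103 CPM in Efemp1ki/ki replicate 2 at 3 months, against 3.297 CPM in the next library. Oca2 reached 2.443 CPM in wild-type replicate 5 at 3 months, and Slc45a2 reached 1.095 CPM in wild-type replicate 5 at 9 months and 2.085 CPM in wild-type replicate 4 at 17 months. All 8 were the highest library of their group. For 3 members the genotype difference in eyecup minus that in retina passed the test of that difference (edgeR, adjusted p under 0.05), at -0.51 for Slc24a5, -1.04 for Tyrp1 and -0.96 for Tyr. All 3 calls were lost on log2(TPM + 1), and that of Tyr in 3 other settings as well.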

How the results depend on the processing

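In eyecups with the ages averaged, 1 member was called, as reported, with RLE factors, no filter, DESeq2, the replicate block, the pigment epithelium covariate and without libraries that stood apart or had an extreme GC trend (the last chosen after seeing the data). Voom and the muscle, rod and surface covariates each called 2, and log2(TPM + 1), GC offsets and GC offsets with the replicate block each called 0. Slc24a5 was then at -0.29 (adjusted p = 0.602), -0.39 (0.101) and -0.37 (0.161). Reversed in sign were Tyr with GC offsets (0.050) and with GC offsets and the block (0.091), Dct with GC offsets and the block (0.019), and, with the pigment epithelium covariate, Dct (0.13), Gpr143 (0.080) and Pmel (0.14). All genes called numbered 807, against 1585 with voom, 1257 with DESeq2, 2505 with the pigment epithelium covariate, 1691 with the other covariates, 544 with the block, 534 without libraries of extreme GC trend, 149 with GC offsets, 107 with GC offsets and the block and 34 on log2(TPM + 1). Leaving out 1 library gave 1 to 2 members called, the second being Slc45a2 without Efemp1ki/ki replicate 6 at 3 months (-0.50, adjusted p = 0.0313), and adjusted p of 0.00744 to 0.0341 for Slc24a5. At 3 months voom and the muscle, rod and surface covariates called 1 member, and leaving out 1 library 0 to 1 (Slc24a5 at -0.77 without the same replicate 6). Of 18003 genes, voom called 2359 there and these covariates 1894, and 776 of 17968 were called without that replicate. For age, voom and the pigment epithelium covariate called 1 in Efemp1ki/ki, beside 2286 and 661 of 18003 genes. In the mean of genotypes RLE factors, voom, DESeq2 and leaving out libraries that stood apart called 1. Genes called there numbered 4008, 5256 and 4362 of 18003, and 4250 of 17893. The pigment epithelium covariate called 4 members, beside 2590 of 18003 genes, and leaving out 1 library called 0 to 1. Those whose absence brought Mitf under the threshold were Efemp1ki/ki replicates 1 and 8 at 3 months and 2 and 4 at 17 months, and wild-type replicates 1, 2, 4 and 5 at 17 months. In retinas voom, DESeq2, log2(TPM + 1) and GC offsets called 1 member by genotype (Tyrp1), beside 1844, 1270, 2008 and 1858 of 17240 genes. No filter, voom and the pigment epithelium covariate called 0 by age, beside 6106 of 28097 genes and 7433 and 5997 of 17240. On log2(TPM + 1) 1 was called by age, but it was Slc24a5 (0.17, adjusted p = 0.0293) and not Slc45a2 (0.23, adjusted p = 0.0594). Between tissues log2(TPM + 1) called 0, beside 25 of 19210 genes. Tyr was not called there without a filter (adjusted p = 0.0547), with the block (0.0533) or without libraries that stood apart (0.0621). The cause of these shifts was not tested. Within a tissue, deviations of same-numbered libraries from different groups had a median correlation of -0.038 in 93 eyecup pairs and 0.0087 in 115 retina pairs. Libraries with different numbers had 0.015 and -0.0046. Whether an eyecup and a retina came from the same animal was not tested, and the joint fit treated them as unpaired. The median pairwise r of members was 0.843 and 0.863 under its 2 alternatives. Of 1188 values of members not printed, 132 changed sign under other settings, 1 of them being called (Tyr with age, both genotypes, at 0.29 with the pigment epithelium covariate), and 3 others gained a call. On leaving out 1 library, 101 of 1085 such values changed sign. Depth limited Gpr143 in retinas, where 4 libraries had 0 counts.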
